A study of Mus musculus with 12 samples.

Results

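The Sle1 interval is a stretch of distal mouse chromosome 1 that carries lupus susceptibility alleles. The genes described here are its protein-coding genes outside the best-known immune families. They were chosen by position and symbol, as the protein-coding genes of GENCODE release M21 (GRCm38) that start in a window of 13 Mb on chromosome 1, from Tbx19 (start 165137855) to Catspere2 (start 177983423). Fcer1a, the interferon-inducible Ifi genes with Aim2, Pyhin1 and Mndal, the Slamf family with Cd48, Cd84, Ly9 and Cd244, and the olfactory receptors were left out. This left 120 genes among the 35275 of the expression table, and 42 coding genes of the interval were set aside. Of the 120, 60 had a mean of at least 0.5 FPKM over all mice and were tested, 48 were detected below that level, and 12 were at 0 in all 12 libraries. FPKM, the fragments of a gene scaled to its length and to the depth of its library, is a level per length, so levels of different genes can be set side by side.

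RNA-Seq was carried out on CD4+ T cells of 12 female mice, 3 in each of 4 groups. B6 (C57BL/6J) mice were left untreated or given anti-CD45RB, and so were SLE123 mice, a B6 strain carrying the NZM2410-derived regions Sle1, Sle2 and Sle3. The methods give an age of 9 weeks, and a legend of the study gives a range up to 12 weeks. Treated mice received 5 intraperitoneal injections of 100 μg of antibody between day 0 and day 7, and all cells were isolated by negative magnetic sorting. The 2 strains differed at all 3 susceptibility regions at once, so alleles of the Sle1 interval and effects of Sle2 or Sle3 on its genes cannot be told apart. The ends of the congenic segment were not given in the sources used here, and the 13-Mb window is a working definition.

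Lupus is an autoimmune disease in which tolerance to nuclear antigens is lost, and Sle1 is the region of the NZM2410 genome best known for that loss. Besides the SLAM and interferon-inducible families, the region holds the low-affinity Fc receptors, which bind IgG in immune complexes. Fcgr2b carries an inhibitory signal, while Fcgr3 and Fcgr4 are activating and need the signalling chain encoded by Fcer1g. B cells, myeloid cells, NK cells and basophils are known for these receptors, and resting T cells express little of them. The other genes serve general functions such as heme and nucleotide synthesis, glycosylation, the stress response of the endoplasmic reticulum and chromosome segregation. Anti-CD45RB binds an isoform of the CD45 phosphatase and is known as a tolerance-inducing antibody.

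The libraries held 13563594 to 23642949 fragments, with a median of 16828670. At this depth 3 fragments on a transcript of 2000 bases corresponded to 0.0634 to 0.111 FPKM, which takes into account counting alone. All 9 CD4+ T cell markers were above 1 FPKM in each group, and their sum was 2821 to 3130 FPKM in the B6 libraries and 2264 to 2953 in the SLE123 libraries. Both CD8 markers together were between 4.23 and 19.4 FPKM. Markers of other cells differed between the groups and are given beside the Fc receptors. In bulk RNA, fewer cells of a type and less RNA per cell cannot be told apart. Liver transcripts led by Alb summed to between 36.7 and 43.8 FPKM in the 6 B6 libraries and to 40.8 FPKM in replicate 1 among the treated SLE123 mice, but only to at most 0.243 FPKM in the other 5. That library therefore stood apart from its group, and results that rest on it are given with and without it.

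The 60 tested genes had mean levels from 0.632 to 164 FPKM with a median of 10.3, and 30 of them were above 10 FPKM. The highest were Tagln2, an actin-binding protein of the cortex, and Cd247, the zeta chain of the T cell receptor complex. Cd247 was at 102, 103 and 97.6 FPKM in untreated B6 mice and at 105, 101 and 105 in treated B6 mice. It was at 99.4, 107 and 75.9 FPKM in untreated SLE123 mice and at 106, 96.7 and 97.4 in treated SLE123 mice. The groups overlapped, and no comparison called the gene. Its annotated exons share 56.4% of their bases with the antisense neighbour Pou2f1, whose listed level of 0.167 FPKM (mean of 12 libraries) cannot be separated from this overlap without strand-specific counts. The 60 genes that were not tested reached at most 0.467 FPKM on average, and 7 of them were above 0 in all libraries. Among them were Crp and Apcs, the pentraxins made by the liver, with highest values of 0.245 and 0.225 FPKM.

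The first comparison asked which of these genes differed between the strains in untreated mice. Of the 60 genes, 24 were called, 11 higher and 13 lower in SLE123 CD4+ T cells (limma on log2(FPKM + 1), Benjamini-Hochberg adjusted p under 0.05 over all 13115 genes, n = 3 per group). Of all genes tested, 42.9% were called in this comparison, so the 40.0% of the interval genes was close to the background. In anti-CD45RB mice, 34 of the 60 were called, 13 higher and 21 lower, beside 52.1% of all genes. The median log2 difference of the 60 genes was 0.00 in untreated mice and -0.04 in treated mice, against -0.03 and 0.03 for all genes. Their median size regardless of sign was 0.27 and 0.17, against 0.30 and 0.23. By these counts the interval genes differed between the strains about as often, and about as much, as genes elsewhere.

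The 2 strain comparisons share no mouse. Both called 18 of the 60 genes with the same sign, 8 higher and 10 lower in SLE123, beside 31.3% of all genes. Fcer1g was called in both with opposite signs, 5 genes were called in untreated mice alone, 15 in treated mice alone, and 21 in neither. Across the 60 genes, the log2 differences of the 2 comparisons correlated with r = 0.63 (rank correlation 0.57), and across all 13115 genes with r = 0.89 (rank correlation 0.74). Genes are not independent replicates, and these values are descriptions. Without the 4 tested Fc receptor genes and Apoa2, r was 0.78 over 55 genes. Rescaling of the values to TPM moved the median of all genes to -0.38 in untreated and to -0.14 in treated mice. On that scale the calls became 8 higher and 26 lower in untreated mice, beside 60.1% of all genes called, and 7 higher and 29 lower in treated mice, beside 52.8%. Both comparisons called 27 with the same sign, 6 higher and 21 lower, which is 45% of the interval genes beside 39.3% of all genes. The share of higher calls among the interval genes went from 45.8% to 23.5% in untreated mice and from 38.2% to 19.4% in treated mice. Among all genes called it moved likewise, from 53.2% to 24.3% and from 56.8% to 35.3%, so the rescaling lowered it across the genome.

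**Figure D1:**
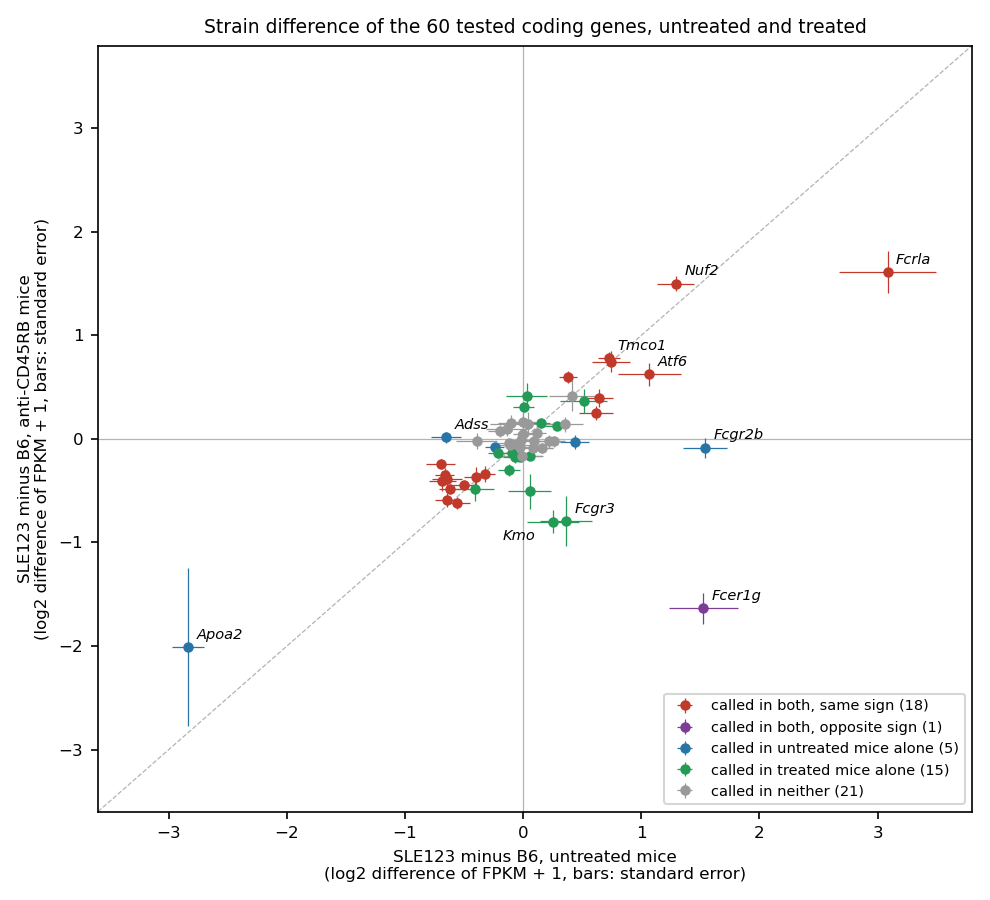
Log2 difference of FPKM + 1 between SLE123 and B6 mice for the 60 tested genes, in untreated mice (horizontal) and anti-CD45RB mice (vertical), with standard errors as bars and a dashed line of equal difference. The 18 genes called in both with the same sign have both values above 0 or both below 0, some near the line, such as Tmco1 at 0.73 and 0.78, and others off it, such as Fcrla at 3.08 and 1.61, while Fcer1g lies at 1.53 and -1.64.

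Several of the shared differences were steady within each strain. For 19 of the 60 genes the 6 SLE123 mice did not overlap the 6 B6 mice, beside 34.9% of all genes, 9 with SLE123 higher and 10 with B6 higher. All 18 genes called in both comparisons were among them, and the remaining one was Sdhc, a subunit of succinate dehydrogenase, singled out after its values were seen. The 18 were picked by tests on these same mice, so their separation is no independent evidence. Of the 18, 13 were called in neither treatment comparison. Of all 60, these comparisons called 15 in B6 and 0 in SLE123, beside 14.9% and 0.0381% of all genes. Few treatment calls are therefore not particular to the 18. Uck2 and Tmco1, which lie next to each other and are transcribed away from each other from GENCODE starts 23058 bases apart, differed in opposite directions. Dcaf6 lies at the proximal end of the interval. The 250 bases before the RefSeq start of each are shown because these 3 genes had strain differences of similar size in treated and untreated mice. They are from RefSeq (GRCm38.p6), which is the C57BL/6J sequence, at chr1:167308420-167308669 on the plus strand for Tmco1, chr1:167285128-167285377 on the minus strand for Uck2 and chr1:165460464-165460713 on the minus strand for Dcaf6. GENCODE places the outermost start of the gene 292, 193 and 12 bases further upstream.
Tmco1: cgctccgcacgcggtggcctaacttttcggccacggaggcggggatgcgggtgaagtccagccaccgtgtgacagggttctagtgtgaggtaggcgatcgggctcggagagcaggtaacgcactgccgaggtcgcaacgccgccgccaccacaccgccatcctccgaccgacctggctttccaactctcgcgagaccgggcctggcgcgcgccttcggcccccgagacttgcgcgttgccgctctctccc
Uck2: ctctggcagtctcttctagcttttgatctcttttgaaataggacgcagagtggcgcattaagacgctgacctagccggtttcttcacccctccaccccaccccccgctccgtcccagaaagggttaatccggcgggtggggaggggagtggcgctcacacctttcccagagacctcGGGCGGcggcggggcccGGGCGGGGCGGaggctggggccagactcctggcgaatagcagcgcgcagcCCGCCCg
Dcaf6: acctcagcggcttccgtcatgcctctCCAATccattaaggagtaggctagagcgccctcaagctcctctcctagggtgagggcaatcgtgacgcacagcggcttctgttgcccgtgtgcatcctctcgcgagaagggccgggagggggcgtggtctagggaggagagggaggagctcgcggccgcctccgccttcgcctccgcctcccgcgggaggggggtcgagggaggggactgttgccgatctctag
Capitals mark matches on either strand to 5 motifs. The CCAAT box was searched as CCAAT, and the TATA box was searched as TATAAA. The E-box was searched in its palindromic form CACGTG, and the cAMP response element was searched as TGACGTCA. The GC box was searched as GGGCGG. Uck2 held 4 matches to the GC box, the nearest starting 7 bases before the start, and 2 of them overlap by 1 base. Dcaf6 held 1 match to the CCAAT box, 224 bases before the start, and Tmco1 held no match to any of the 5. Among 32851 RefSeq promoter windows of 250 bases, 32.7% held the GC box, 33.8% the CCAAT box, 12.4% the TATA box, 6.02% the E-box and 1.55% the cAMP response element. Of the 47 tested interval genes with a RefSeq window, 27 held the GC box, 18 the CCAAT box, 3 the TATA box, 1 the E-box and 3 the cAMP response element. These matches are descriptions of the reference strain and not binding sites.

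Tmco1 encodes a calcium channel of the endoplasmic reticulum. It was at 8.53, 8.32 and 9.14 FPKM in untreated B6 mice and at 8.72, 8.29 and 7.80 FPKM in treated B6 mice. It was at 13.5, 15.7 and 15.8 FPKM in untreated SLE123 mice and at 15.9, 14.1 and 14.7 FPKM in treated SLE123 mice. Every SLE123 mouse was above every B6 mouse, and treatment made no difference that the test could call in either strain. The log2 difference was 0.73 ± 0.0923 (SE, adjusted p = 0.000961, limma) in untreated mice and 0.78 ± 0.0631 (adjusted p = 0.000140, limma) in treated mice, which are 1.73-fold and 1.801-fold on the FPKM scale.

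Uck2, a kinase of the pyrimidine salvage pathway that phosphorylates uridine and cytidine, went the other way. It was at 33.0, 32.4 and 33.6 FPKM in untreated B6 mice and at 34.8, 33.8 and 34.3 FPKM in treated B6 mice. It was at 18.5, 20.1 and 23.9 FPKM in untreated SLE123 mice and at 24.0, 20.2 and 23.5 FPKM in treated SLE123 mice. The strains did not overlap, with log2 differences of -0.65 ± 0.101 (SE, adjusted p = 0.00244, limma) and -0.59 ± 0.0668 (adjusted p = 0.000497, limma). Dcaf6, a substrate receptor of a cullin ubiquitin ligase, had 12.6 to 14.3 FPKM in untreated and 14.3 to 15.1 in treated B6 mice. In SLE123 mice it had 8.49 to 9.89 FPKM untreated and 10.01 to 10.99 treated, a log2 difference of -0.50 ± 0.0948 and of -0.44 ± 0.0522. Both were called (adjusted p = 0.00529 and 0.000568, limma). Rcsd1, which binds the actin capping protein CapZ, was at 99.8, 101 and 102 FPKM in untreated B6 mice and at 75.5, 71.9 and 58.6 FPKM in untreated SLE123 mice. Its difference was -0.56 in untreated and -0.62 in treated mice, and it was the most abundant of the 18 genes.

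**Figure D2:**
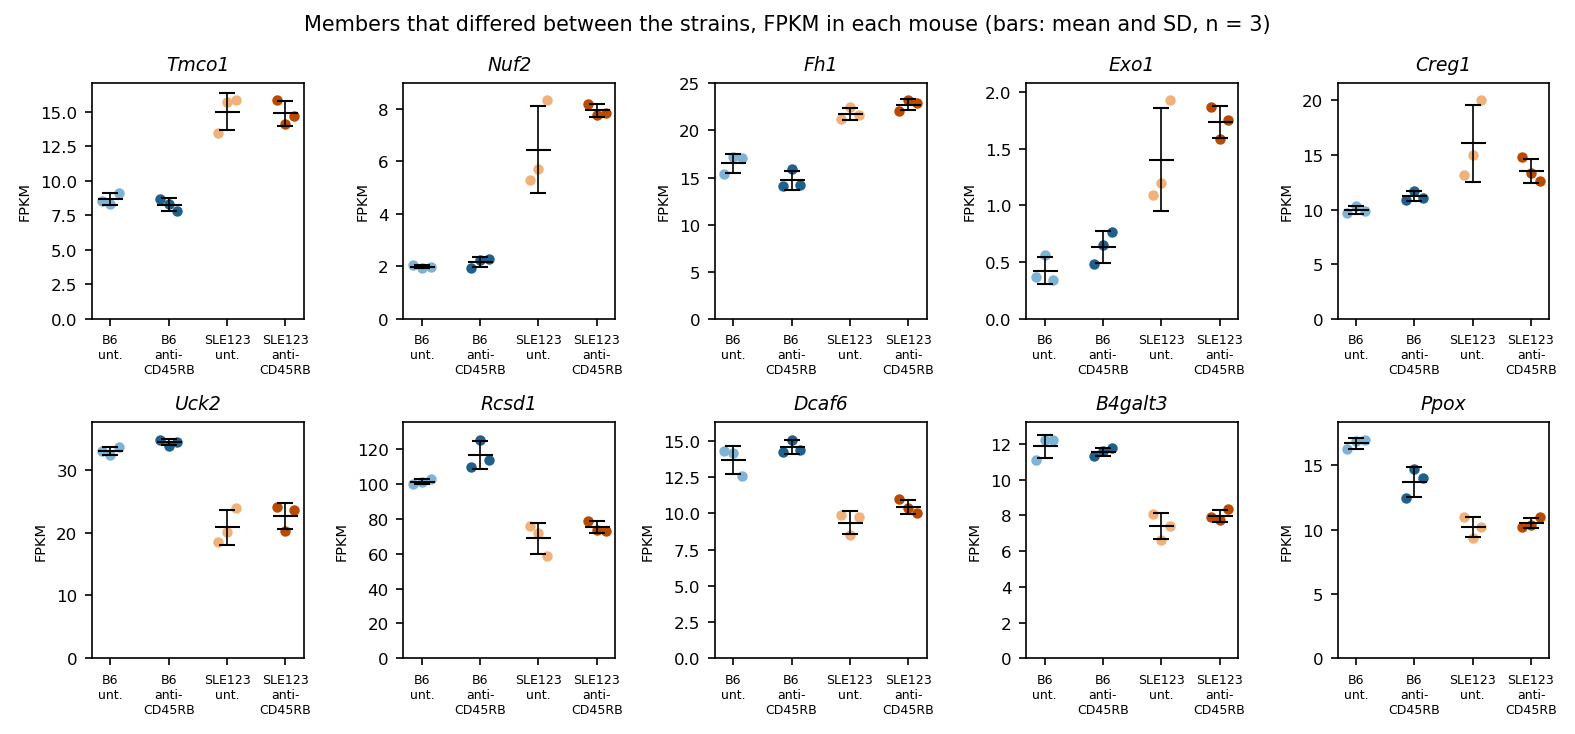
FPKM of 10 genes in each of the 12 mice, with the mean and SD of 3 mice per group as bars and axes from 0. In each panel the 6 SLE123 mice lie wholly above (upper row) or below (lower row) the 6 B6 mice.

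The genes of cell division and DNA repair held the largest rise outside the Fc receptor list in both strain comparisons, that of Nuf2. Of the 4 tested, Nuf2 and Exo1 were higher in both comparisons, Sdccag8 was lower in treated mice (called in 1 of 6 fits without 1 mouse), and Cep170 was not called. Nuf2, a subunit of the kinetochore complex that holds chromosomes to the spindle, was at 2.06, 1.95 and 1.96 FPKM in untreated B6 mice and at 5.28, 5.72 and 8.34 in untreated SLE123 mice. In treated mice it was at 1.93, 2.26 and 2.299 FPKM in B6 and at 8.20, 7.77 and 7.84 FPKM in SLE123. All SLE123 mice were above all B6 mice. The log2 difference was 1.29 ± 0.157 (SE, adjusted p = 0.000783, limma) in untreated mice, and in treated mice the level was 3.67-fold higher on the FPKM scale (adjusted p = 2.69e-05, limma). Exo1, an exonuclease of mismatch repair and recombination, differed by 0.74 in both, from group means of 0.424 and 0.634 FPKM in B6 to 1.40 and 1.73 FPKM in SLE123. The sum of 6 cell-cycle transcripts, Mki67, Top2a, Cdk1, Ccnb1, Ccna2 and Bub1, chosen after values were seen, was 24.8 to 35.7 FPKM in the B6 libraries and 83.8 to 136 FPKM in the SLE123 libraries. Its part in the Nuf2 and Exo1 differences was not tested.

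Of the 8 tested genes of transcription and chromatin, 2 were higher and 3 lower in SLE123 in each comparison. Atf6, a sensor of the endoplasmic reticulum that becomes a transcription factor when proteins misfold, was at 2.97, 3.35 and 3.04 FPKM in untreated B6 mice. In untreated SLE123 mice it was at 6.88, 5.05 and 12.5 FPKM. Treated mice had 3.93 to 4.27 FPKM in B6 and 5.66 to 7.95 FPKM in SLE123, again without overlap. The log2 differences were 1.07 ± 0.266 (SE, adjusted p = 0.0159, limma) and 0.62 ± 0.114 (adjusted p = 0.00378, limma). Replicate 3 of the untreated SLE123 mice was the highest of all 12 libraries for Atf6 and for the B cell and plasma cell markers, and the difference stayed between 0.75 and 1.32 when a mouse was left out. The adjusted p then reached 0.0551 (limma) in the least favourable case, and 4 of the 6 fits called the gene.

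The 3 lower ones were Dcaf6, Dedd and Zbtb18. Dedd, a nuclear protein with a death effector domain, had means of 2.09 FPKM in untreated B6 and 1.34 FPKM in untreated SLE123 mice. Its exons share 36.4% of their bases with the antisense gene Nit1, so reads of the 2 cannot be told apart without strand. Zbtb18, a zinc finger repressor, differed by -0.32 and -0.34. Without 1 mouse, the untreated difference was called in 3 of 6 fits for Dedd and in 4 of 6 for Zbtb18. The treated difference was called in 5 of 6 and 6 of 6. Usf1, which binds the E-box and is widely expressed, was between 37.3 and 49.4 FPKM in all 12 mice and was called in no comparison. Tada1, a subunit of the SAGA coactivator, and Pogk, a nuclear protein with a KRAB domain, were not called between the strains.

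Mitochondrial and redox genes were mixed. In untreated mice 2 of the 9 tested were higher in SLE123, Mpc2 and Fh1, and 1 was lower, Ppox. In treated mice Fh1 and Sdhc were higher, and 4 were lower, Ppox, Kmo and Mgst3 among them. Without 1 mouse, untreated Mpc2 and treated Sdhc and Mgst3 were each called in 2 of 6 fits. Fh1, the fumarase of the tricarboxylic acid cycle, was at 15.4, 17.2 and 17.0 FPKM in untreated B6 mice and at 21.3, 22.5 and 21.6 in untreated SLE123 mice. Treated mice had 14.1 to 15.9 and 22.1 to 23.2 FPKM, so all 6 SLE123 mice were above all 6 B6 mice. Its log2 difference was 0.38 ± 0.0770 (SE, adjusted p = 0.00697, limma) and 0.60 ± 0.0565 (adjusted p = 0.000247, limma). On the TPM scale it was 0.02 in untreated mice and not called there (adjusted p = 0.927, limma).

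Ppox, the oxidase that forms protoporphyrin in heme synthesis, was lower in SLE123 with differences of -0.67 and -0.35. It was at 16.2, 16.9 and 17.0 FPKM in untreated B6 mice and at 10.97, 9.39 and 10.2 FPKM in untreated SLE123 mice. Its exons overlap those of the antisense gene B4galt3 over 791 bases, 17.5% of Ppox and 14.5% of B4galt3. B4galt3, a galactosyltransferase of the Golgi, was also lower in SLE123, by 0.62 ± 0.0967 (SE) and 0.48 ± 0.0507 on the log2 scale. Reads in the shared bases cannot be assigned to one of the pair without strand. Ppox, Adss and Pigm are among the metabolic genes that the study listed from these same samples, so their direction after treatment in B6 is no independent evidence.

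In the secretory pathway list, 2 of 10 tested genes were higher and 2 lower in SLE123 in untreated mice, and 2 were higher and 5 lower in treated mice. Tmco1 and Creg1 were the higher genes in both. Of the 5 lower in treated mice, Ncstn and Sft2d2 were each called in 1 of 6 fits without 1 mouse. Tiprl was called in 5 of 6, and B4galt3 and Pigm in 6 of 6. Creg1, a lysosomal glycoprotein, was at 9.66 to 10.4 FPKM in untreated B6 mice and at 13.2, 14.9 and 20.01 FPKM in untreated SLE123 mice. Its differences of 0.62 and 0.25 were called (adjusted p = 0.0124 and 0.0173, limma) but not on the TPM scale, where they were 0.27 and 0.09. Without 1 mouse, they were called in 6 of 6 and 4 of 6 fits. Pigm, a mannosyltransferase that builds the GPI anchor, was lower by 0.70 in untreated and 0.24 in treated mice on the log2 scale. It was at 13.9 to 14.7 FPKM in untreated B6 mice and at 10.3, 7.21 and 8.17 in untreated SLE123 mice.

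Of 9 tested genes of lymphocyte signalling, none was higher and 2 were lower in untreated SLE123 mice, Rcsd1 and Arhgap30. Arhgap30, a GTPase-activating protein, was at 0.879 to 1.03 FPKM in untreated B6 mice and at 0.149 to 0.446 in untreated SLE123 mice. Its values rest on 14 to 93 fragments per library. In treated mice 1 of the 9 was higher, Opn3, and 3 were lower, Rcsd1, Arhgap30 and Pea15a. Opn3 was called in 1 of the 6 fits without 1 mouse, and each of the others in all 6. Vangl2, a membrane protein of planar cell polarity, was called lower in both comparisons and was at 1.39, 1.12 and 1.07 FPKM in untreated B6 mice against 0.380, 0.303 and 0.402 in untreated SLE123 mice. Among the 4 tested genes of ubiquitin-like modification and folding, Dcaf8 was lower in untreated and Ufc1 higher in treated SLE123 mice, and both missed the threshold in most fits without 1 mouse (2 of 6 and 1 of 6 called). The 5 tested genes in no list were not called in untreated mice, where Dusp23, a phosphatase, had the lowest adjusted p (0.0763, limma). In treated mice Alyref2 was higher and Dusp23 lower, called in 2 of 6 and 6 of 6 fits without 1 mouse.

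Among the 7 tested genes of cytosolic metabolism, Uck2, Adss and Apoa2 were lower in untreated SLE123 mice and none was higher. In treated mice Uck2 was lower and Pex19 was higher, by 0.30 (adjusted p = 0.00143, limma). Pex19 is a chaperone of peroxisomal membrane proteins, and its group means were 14.6 and 12.5 FPKM in untreated and treated B6 mice and 14.7 and 15.6 FPKM in SLE123 mice. Hsd17b7, Nit1 and Uap1 were not called between the strains.

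Position within the interval gave no clear order. Of the tested genes 0 to 3 Mb from the proximal end, 5 of 13 were called in both strain comparisons with the same sign, against 4 of 9 at 3 to 6 Mb, 6 of 28 at 6 to 9 Mb and 3 of 10 at 9 to 13 Mb. The plot along the interval shows called genes of both signs side by side. On the rest of chromosome 1, 43.9% of 544 tested coding genes were called in untreated mice, 57.7% in treated mice and 33.8% in both, against 40.0%, 56.7% and 30.0% of the interval genes. In the flanking 13 Mb on either side, the shares were 52.3%, 59.5% and 40.5% of 111 genes. The highest shares on the chromosome were in its last window, which begins 13 Mb beyond the distal end of the interval, where 17 of 24 genes were called in both.

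**Figure D3:**
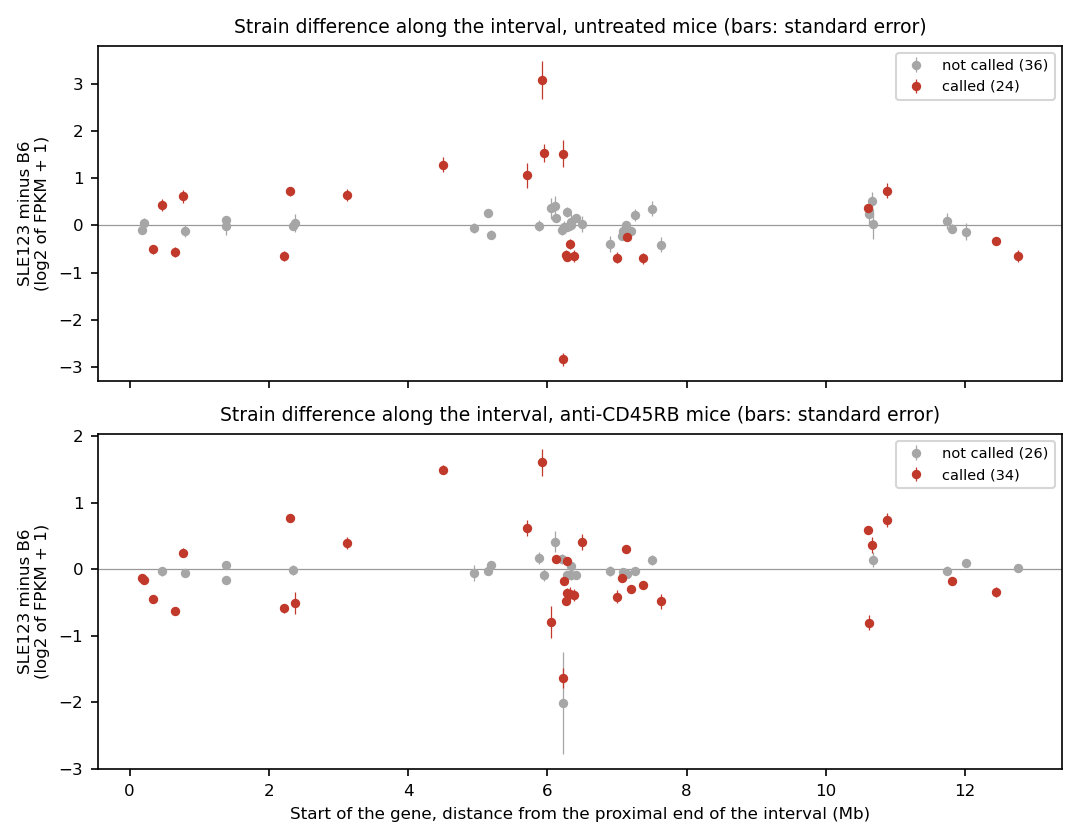
Log2 difference of FPKM + 1 between SLE123 and B6 mice, with standard errors, against the distance of each gene's start from the proximal end of the interval (Mb), in untreated (top) and anti-CD45RB mice (bottom). Called genes (24 and 34 of 60, red) of both signs are spread over the interval, and the largest differences lie near 6 Mb, where the Fc receptor genes and Apoa2 are.

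Among the Fc receptor genes, the strain-by-treatment interaction given below was called for Fcer1g and Fcgr2b, and not for Fcrla or Fcgr3. Outside this list it was called for Adss. Of the 6 genes, Fcgr2b, Fcgr3, Fcer1g and Fcrla were tested. In untreated mice 3 of them were higher in SLE123 and 1 was not called, whereas in treated mice Fcrla was higher, Fcgr3 and Fcer1g were lower and Fcgr2b was not called. After anti-CD45RB in B6 mice, Fcgr2b, Fcer1g and Fcrla rose and Fcgr3 was not called. In SLE123 mice none of the 4 was called, and their log2 differences were all below 0, from -0.86 to -0.49.

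Fcgr2b, the inhibitory IgG receptor, was at 0.220, 0.123 and 0.193 FPKM in untreated B6 mice and at 1.51, 1.71 and 1.53 FPKM after anti-CD45RB. SLE123 values were at 1.72, 2.31 and 3.48 FPKM untreated and at 1.21, 1.46 and 1.65 FPKM treated. Untreated B6 mice were the low group, while the other 3 groups lay within 1.21 to 3.48 FPKM. The difference between the untreated strains was 1.54 ± 0.186 on the log2 scale (SE, adjusted p = 0.000746, limma), and the rise in treated B6 mice was 1.13 ± 0.0798 (adjusted p = 0.000752, limma).

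Fcer1g, the signalling chain shared by activating Fc receptors, was at 2.12, 1.89 and 3.503 FPKM in untreated B6 mice and at 18.7, 17.2 and 12.4 FPKM in treated B6 mice, a 6.44-fold rise. In SLE123 mice it was at 6.46, 7.38 and 14.4 FPKM untreated and at 3.88, 5.04 and 4.45 FPKM treated. The treated B6 mice overlapped the highest untreated SLE123 mouse and no other mouse. The strain difference was 1.53 ± 0.293 (SE) in untreated and -1.64 ± 0.153 in treated mice on the log2 scale, and both were called (adjusted p = 0.00564 and 0.000234, limma).

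Fcrla, an intracellular Fc receptor-like protein of B cells, was at 0.185, 0.165 and 0.148 FPKM in untreated B6 mice and at 1.14, 1.24 and 0.921 FPKM after anti-CD45RB. The SLE123 mice were at 5.12, 6.63 and 19.7 FPKM untreated and at 3.61, 7.08 and 6.01 FPKM treated. All SLE123 mice were above all B6 mice, with log2 differences of 3.08 ± 0.411 (SE) and 1.61 ± 0.203. Without replicate 3 of the untreated SLE123 mice the first difference was 2.55, and it was called in each of the 6 fits without 1 mouse. Fcgr3, an activating receptor, was at 0.784 to 2.16 FPKM in untreated and 1.72 to 4.32 in treated B6 mice, and at 1.79 to 2.64 and 0.926 to 1.46 FPKM in SLE123 mice. It was called lower in treated SLE123 than in treated B6 mice (-0.79 ± 0.241, adjusted p = 0.0296, limma), in 3 of the 6 fits without 1 mouse. Fcgr4 was at 2.69 FPKM in replicate 3 of the untreated SLE123 mice and at most 0.256 FPKM in any other library. Fcrlb was at most 0.0574 FPKM.

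Markers of other cells also differed between the groups. The 6 B cell markers, from Cd79a to Pax5, summed to 6.11 to 7.30 FPKM in untreated B6 mice, 25.02 to 33.5 in treated B6 mice, 62.0 to 223 in untreated SLE123 mice and 36.7 to 56.5 in treated SLE123 mice. The 6 myeloid markers summed to 8.34 to 14.4, 39.0 to 113, 31.4 to 74.2 and 17.9 to 24.1 FPKM in the same order. The 3 basophil markers summed to 2.29 to 2.82, 10.8 to 24.6, 89.0 to 99.8 and 24.9 to 32.0 FPKM, and the 5 plasma cell markers to 57.3 to 76.8, 92.8 to 195, 1944 to 5025 and 1045 to 1916 FPKM. The 4 NK cell markers summed to 17.6 to 19.4, 29.8 to 37.6, 16.1 to 18.6 and 21.2 to 27.6 FPKM. The NK cell sum was thus higher in treated mice of both strains, whereas the other sums were lower in treated SLE123 mice. Single markers did not all follow their sum. In B6 mice the median of Cd22 was 2.28 FPKM untreated and 1.93 treated. The plasma cell sum was led by Jchain, with medians of 2429 FPKM in untreated and 1401 in treated SLE123 mice. Mzb1 and Sdc1 were also lower there after treatment, at 204 and 190 and at 19.4 and 15.6 FPKM. Xbp1 and Prdm1 were higher, at 150 and 179 and at 9.74 and 13.9 FPKM. Itgam had a median of 1.62 FPKM in untreated B6 and 1.20 in untreated SLE123 mice. Among the NK cell markers in SLE123 mice, the median of Klrb1c was 4.85 FPKM untreated and 10.8 treated. Eomes was at 12.4 and 11.5 FPKM there, Ncr1 at 0.215 and 0.390, and Klra8 at 0 in both. In B6 mice the median of Ncr1 was 0.290 FPKM untreated and 5.42 treated, and that of Klra8 0.0526 and 2.42. At a group mean above 1 FPKM were 3, 6, 6 and 5 of the 6 B cell markers and 3, 4, 5 and 4 of the 6 myeloid markers. No marker of these lists was at 0 in every library of a group. Their part in the Fc receptor differences was not tested.

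**Figure D4:**
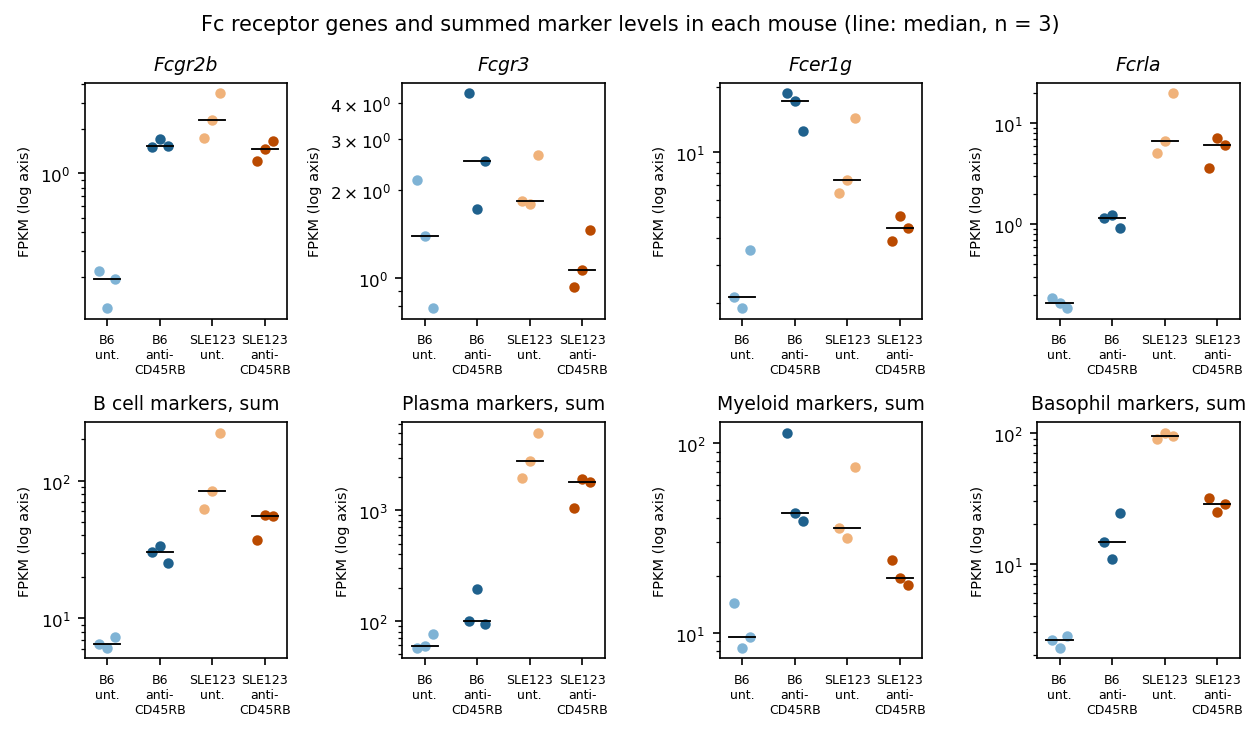
FPKM of the 4 tested Fc receptor genes (top) and summed FPKM of B cell, plasma cell, myeloid and basophil markers (bottom) in each mouse, on log axes, with lines at the group medians (n = 3). Untreated B6 mice are the low group for Fcgr2b, Fcer1g and Fcrla and for all 4 marker sums.

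Apoa2, an apolipoprotein made by the liver, had the largest fitted fall between the untreated strains, -2.84 ± 0.138 (SE, adjusted p = 1.63e-05, limma). It was at 5.86, 6.83 and 7.44 FPKM in untreated B6 mice, and at 0, 0 and 0.245 FPKM in untreated SLE123 mice, where the last value rests on 3 fragments. The size of the fitted difference depends on the pseudocount. Treated B6 mice had 6.97, 7.55 and 6.54 FPKM, and treated SLE123 mice 6.88, 0 and 0 FPKM. The gene thus followed the 5 liver markers, at 40.8 FPKM in the same replicate 1, and their part in it was not tested. The difference between the treated strains was -2.01 with that library and not called, and -3.00 without it (adjusted p = 1.6e-05, limma).

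The treatment comparisons asked which of the genes changed after anti-CD45RB within a strain. In B6 CD4+ T cells 15 of the 60 were called, 10 higher and 5 lower (limma, n = 3 per group), beside 14.9% of all genes tested. The median log2 difference of the 60 was 0.06, against 0.00 for all genes. With values centred on the median log-ratio the calls were 10 higher and 3 lower, so that 76.9% instead of 66.7% of them were rises. Among all genes called, 64.9% instead of 58.8% were rises. When 1 mouse was left out, 7 to 9 of the 60 were called, beside 5.15% to 10.6% of all genes. Each of these 6 fits moved the count by more than 1.5 times, and it was 7 without untreated replicate 3 or 4, 8 without untreated replicate 5 or treated replicate 5, and 9 without treated replicate 1 or 3. In SLE123 CD4+ T cells limma called 0 of the 60, beside 0.0381% of all genes, and voom on recovered fragments also called 0. At an unadjusted p under 0.05 there were 8 of the 60, beside 10.4% of all genes. The median standard error of the 60 differences was 0.116 in SLE123 and 0.0669 in B6, so a change of a given size was less detectable in SLE123.

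Besides the Fc receptor genes, Kmo, Pea15a and Pogk rose most in treated B6 mice. Kmo, an enzyme of tryptophan breakdown through kynurenine, was at 0.422, 0.346 and 0.372 FPKM in untreated and at 1.75, 1.797 and 1.33 FPKM in B6 mice given the antibody. The groups did not overlap, and the log2 difference was 0.92 ± 0.0966 (SE, adjusted p = 0.00258, limma). In SLE123 mice Kmo was at 0.593, 0.219 and 1.29 FPKM untreated and at 0.388, 0.578 and 0.549 FPKM treated, a wide spread in the untreated group that covered the treated one. The strain difference was called after treatment, at -0.80 (adjusted p = 0.00115, limma). It was not called before treatment, at 0.25 ± 0.221 (SE, adjusted p = 0.383, limma), and the interaction given below did not pass. Pea15a, a death effector domain protein that binds ERK kinases, rose from 27.03 ± 1.078 to 37.1 ± 0.980 FPKM in B6 mice (SD, n = 3), a log2 difference of 0.44 (adjusted p = 0.00187, limma). In SLE123 mice it was at 26.2, 26.3 and 22.0 FPKM untreated and at 32.4, 28.0 and 29.5 FPKM treated. These groups did not overlap either, with a difference of 0.26 that did not pass (adjusted p = 0.466, limma). Pogk rose from 4.13 to 5.92 FPKM in B6, by 0.43 on the log2 scale, and Uap1, which makes UDP-N-acetylglucosamine, from 11.99 to 15.5 FPKM, by 0.35.

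Atf6 and Rcsd1 also rose in treated B6 mice, by 0.32 (adjusted p = 0.0323, limma) and 0.20 (adjusted p = 0.0422, limma). Neither kept its call in most fits without 1 mouse, with 0 of 6 and 1 of 6 called, and Sft2d2, which rose by 0.14, kept it in 0 of 6. Vangl2 fell by 0.37, which is 1.70-fold on the FPKM scale at its low level, Ppox by 0.27, Pex19 by 0.21, Adss by 0.19 and Dcaf8, another cullin ligase receptor, by 0.18 on the log2 scale. None of these 5 was called in more than 2 of the 6 fits without 1 mouse. Of the 15 genes called in B6, 8 had the opposite sign in SLE123 and 7 the same, beside 59.4% with the opposite sign among all genes called in B6.

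**Figure D5:**
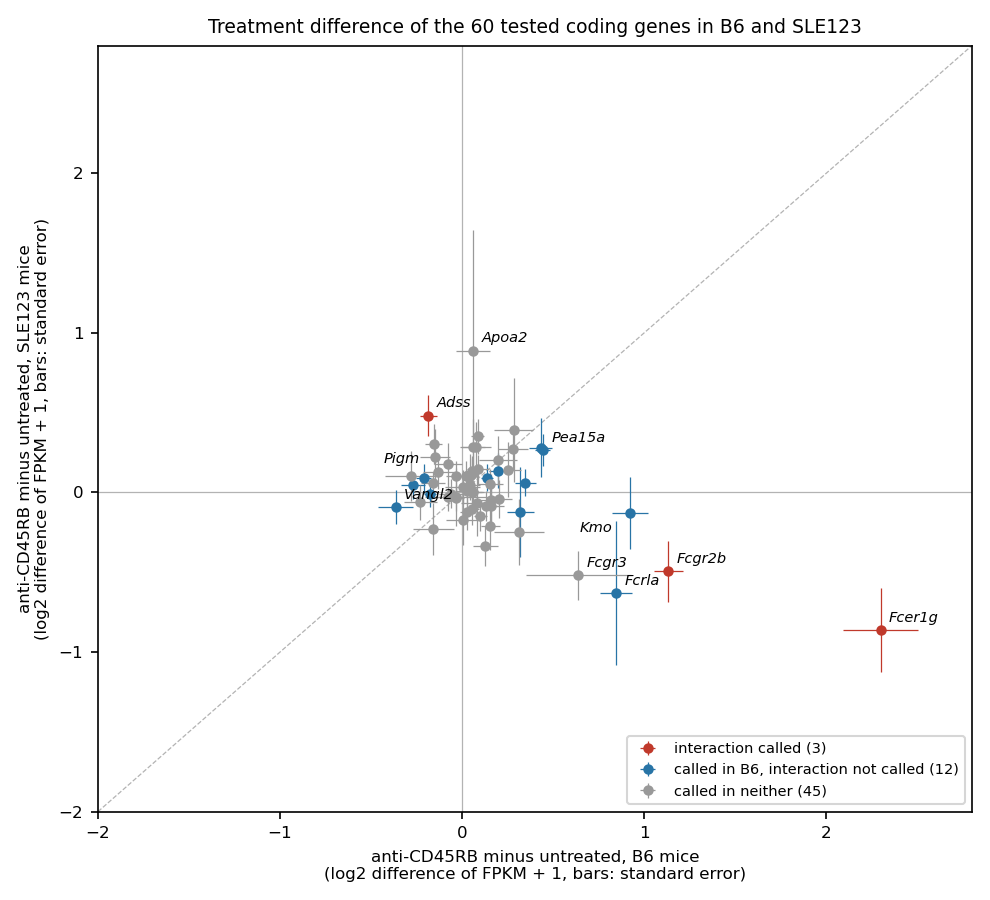
Log2 difference of FPKM + 1 after anti-CD45RB for the 60 tested genes in B6 (horizontal) and SLE123 mice (vertical), with standard errors as bars and a dashed line of equal difference. Fcer1g lies farthest from the line, at 2.299 in B6 and -0.86 in SLE123.

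The strain-by-treatment interaction, fitted on all 12 mice as the SLE123 treatment effect less the B6 one, tested directly whether the response differed between the strains. It called 3 of the 60, Fcer1g, Fcgr2b and Adss, beside 3.64% of all genes. At an unadjusted p under 0.05 there were 14 of the 60, beside 25.1% of all genes. Fcer1g had a difference of -3.16 ± 0.369 (SE, adjusted p = 0.00178, limma) and Fcgr2b of -1.63 ± 0.218 (adjusted p = 0.00346, limma), and both were called in each of the 12 fits without 1 mouse. The B cell, plasma cell, myeloid and basophil marker sums given above were also higher in treated than in untreated B6 mice. They were lower in treated than in untreated SLE123 mice, although the medians of the plasma cell markers Xbp1 and Prdm1 were higher. The NK cell sum was higher in treated than in untreated mice of both strains. Of its markers, Ncr1 and Klra8 had medians above 1 FPKM in treated B6 mice alone. The part of these markers in the 2 differences was not tested.

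Adss, which makes adenylosuccinate on the way from IMP to AMP, had the opposite pattern. It was at 51.6, 52.2 and 50.8 FPKM in untreated B6 mice and at 45.7, 42.5 and 47.5 FPKM in B6 mice given the antibody, a small fall without overlap. In SLE123 mice it was at 27.4, 31.6 and 39.4 FPKM untreated and at 48.0, 44.3 and 44.7 FPKM treated, again without overlap. Untreated SLE123 mice were thus below all other mice, and after treatment the strains overlapped. The strain difference was -0.65 ± 0.127 (SE, adjusted p = 0.00588, limma) untreated and 0.01 ± 0.0542 treated (adjusted p = 0.845, limma). The interaction was 0.67 ± 0.146 (adjusted p = 0.0333, limma), but it was called in only 2 of the 12 fits without 1 mouse, those without untreated SLE123 replicate 1 or 3. The change in SLE123 alone, 0.48 ± 0.130, did not pass (adjusted p = 0.437, limma).

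Kmo and Pigm came next, with interactions of -1.05 (adjusted p = 0.0526, limma) and 0.46 (adjusted p = 0.0824, limma), which did not pass. Without replicate 1 of the untreated SLE123 mice the interaction called 17 of the 60, Kmo and Pigm among them, when 2917 of all genes were called. Without any other mouse it called 2 to 4, beside 1.56% to 3.79% of all genes.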

How the data were processed

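CD4+ T cell RNA of 12 mice was sequenced in 1 library per mouse, and libraries were grouped by their titles. The authors deposited FPKM values per Ensembl gene. The submitters' processing notes name CASAVA 1.8, STAR and mm10, while the annotation and the counting program were not given in the sources used here. The methods mention a sort into CD25+ and CD25- cells, which the titles do not name, and the library type was not stated as stranded or unstranded.

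Symbols, gene types and positions were taken from GENCODE release M21 (GRCm38), in which 34490 of 35275 identifiers were found. For 100% of the 23230 genes above 0, FPKM values matched whole numbers of fragments (tolerance 0.005 fragments), which gave fragments per gene and the depth of 13563594 to 23642949 fragments per library. The libraries carried no molecular identifiers, so the precision that this depth gives concerns counting alone.

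Values were transformed as log2(FPKM + 1), a scale that understates the change of low genes. Genes averaging at least 0.5 FPKM, 13115 in all, were tested with limma 3.58.1 in R 4.3.3 (lmFit, eBayes with a trend), with Benjamini-Hochberg adjustment over all of them and a threshold of 0.05. Each comparison used its own 6 mice, and the interaction used 12. Replicates are separate mice by the study's description. The authors tested their groups with DESeq2, which was not run here. Alternatives were another pseudocount, other filters, TPM, centring, voom on recovered fragments, 1 fit of all mice, eBayes without a trend, a replicate block and each mouse left out.

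Named genes are those called in both strain comparisons, the 6 largest called in 1 or with opposite signs, the 6 largest per direction in each treatment comparison, the 5 with the smallest interaction p, all Fc receptor genes, Cd247, Pou2f1, Atf6, Usf1, Ppox, Adss, Pigm, Apoa2, Crp and Apcs. Others are named as list members or as stated, and 1 gene of the rule is not reported here. The genes, lists and tests were chosen with earlier results of these data known. Promoter windows came from RefSeq tables, which held 98 of the 120 genes.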

Additional observations from a re-analysis of the deposited data

Results flagged for a closer look

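The test of a strain difference in the treatment effect picked out 3 of the interval genes. For Fcer1g the SLE123 treatment effect less the B6 one was -3.16 on the log2 scale, since it rose by 2.299 in B6 and was at -0.86 in SLE123. For Fcgr2b the value was -1.63, from 1.13 in B6 and -0.49 in SLE123. For Adss it was 0.67, from -0.19 in B6 and 0.48 in SLE123. In both strains and for each of the 3 genes, no treated mouse lay within the range of the untreated mice. The 3 genes were picked by a test on these same values, so this separation is no independent evidence. Many other genes separated in the same way. None of the 3 was called for treatment in SLE123 mice alone.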

How the results depend on the processing

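Among the 62 called values of named genes, none changed direction under any alternative run. Of 484 values under alternatives other than leaving out a mouse or the replicate block, 451 kept their call and 33 lost it, and of 390 values without 1 mouse 327 kept it and 63 lost it. With the replicate block 28 of 39 lost it. The interval genes called fell from 34 to 11 in the treated strain comparison, beside 52.1% and 26.0% of all genes. For treatment in B6 they fell from 15 to 0, beside 14.9% and 0% of all genes. At an unadjusted p under 0.05 (limma) the block left 11 there, beside 2466 of all 13115 genes. For B6, voom without the block called 19, beside 20.5% of all genes. The interaction calls fell from 3 to 0, beside 3.64% and 0.259% of all genes. In SLE123 the count remained at 0, beside 0.0381% and 0.0305%. Deviations of same-numbered mice correlated between -0.16 and 0.27, and those of mice with different numbers between -0.33 and 0.21. These few values cannot decide whether a shared number stands for a batch or a pair. No paired analysis was possible for the untreated strain comparison, because its groups share 1 number. The B6 groups share only the numbers 3 and 5, and the treated groups of the 2 strains only 1 and 3. A block then leaves few mice to estimate the error from. A call lost with it therefore does not show that a difference is absent. In 1 fit of all 12 mice, 6 genes were called for treatment in B6, beside 6.21% of all genes. On the TPM scale the interaction called 5, beside 3.28% of all genes. Without 1 mouse, the counts were 19 to 30 for the untreated strains, beside 28.0% to 49.3% of all genes. For the treated strains they were 24 to 32, beside 42.1% to 51.0%. Treatment in B6 had 7 to 9, beside 5.15% to 10.6%, and in SLE123 0 to 0, beside 0.00762% to 0.0534%. For the interaction they were 2 to 17, beside 1.56% to 22.2%. The shared count of 18 ranged from 15 to 27 under the settings that refitted both strain comparisons, beside 15.5% to 39.3% of all genes. Chosen after seeing the data, the shared count ranged from 15 to 20 without 1 mouse. It has no value with the block. Depth limits the genes near 0.1 FPKM, where a value rests on a few fragments.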
